A study of Python bivittatus with 8 samples.

Results

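The genes described here rose in the python ventricle at the growth time point and were back near the fasted level at the last one. In between they still held more than 50% of their rise on a log2 scale. Of 21368 genes in the deposited table, 91 met this description. The tissue was the left ventricle of captive-bred, wild-type Burmese pythons (Python bivittatus) of about 2 kg, and all 4 groups had gone through a fast of 28 days. The fasted group was taken at the end of the fast, and the 1DPF, 4DPF and 6DPF groups (days post-fed) were taken 1, 4 and 6 days after a rodent meal of 25% of body mass. Each group had 2 libraries. The labels give 6 snakes for the sequencing and proteomics work, fewer than the 8 libraries, and do not say how snakes and libraries correspond, so n counts libraries. The design text calls 1DPF active growth of the heart, 4DPF early regression and 6DPF later regression.

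After a large meal the python heart enlarges, and it shrinks again as digestion ends. The growth is a physiological hypertrophy, in which existing muscle cells take on more contractile, metabolic and biosynthetic capacity. It is studied as a reversible counterpart to disease hypertrophy of the mammalian heart.

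Members were chosen on log2(CPM+1), with CPM the count divided by the library total and scaled to 1000000. A gene had to reach a mean of at least 3 at 1DPF, at least 1 above both the fasted and the 6DPF mean. The fasted and 6DPF means had to lie within 0.585 of each other, and both 1DPF libraries had to exceed all fasted and 6DPF libraries. These conditions, which use no 4DPF value, were met by 273 genes. Membership was then set by the share of the rise lost by 4DPF, which had to be from 0 to under 50%. The other genes were 179 that had lost 50% or more and 3 with a higher mean at 4DPF than at 1DPF. Every group entered this rule, so the course of the 91 genes is described and not tested.

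The table gives genes as numbers with no gene names, so roles cannot be stated, nor can the labelled tissue be checked against heart markers. Only 2 identifiers are printed, and other members are known by their length or their rank. Library totals ran from 33203808 to 42250755 counts. No member had fewer than 47 reads in any library or fewer than 187 in a 1DPF library. RNA from bulk tissue does not tell more RNA per cell from more cells of a type.

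As a group the members formed a peak with a shoulder. The median member stood at 16.2 and 16.5 CPM in the fasted libraries, at 60.2 and 52.5 at 1DPF, at 40.5 and 38.4 at 4DPF, and at 19.2 and 19.2 at 6DPF. The 4DPF medians therefore lay between those of 1DPF and 6DPF in every library. Of the library's reads the members took 1.10% and 0.669% in fasted ventricle, 2.73% and 3.21% at 1DPF, 2.25% and 1.96% at 4DPF, with 0.993% and 0.888% at 6DPF. Both 4DPF libraries were thus above both fasted and both 6DPF libraries in this share, and below both 1DPF libraries.

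**Figure D1:**
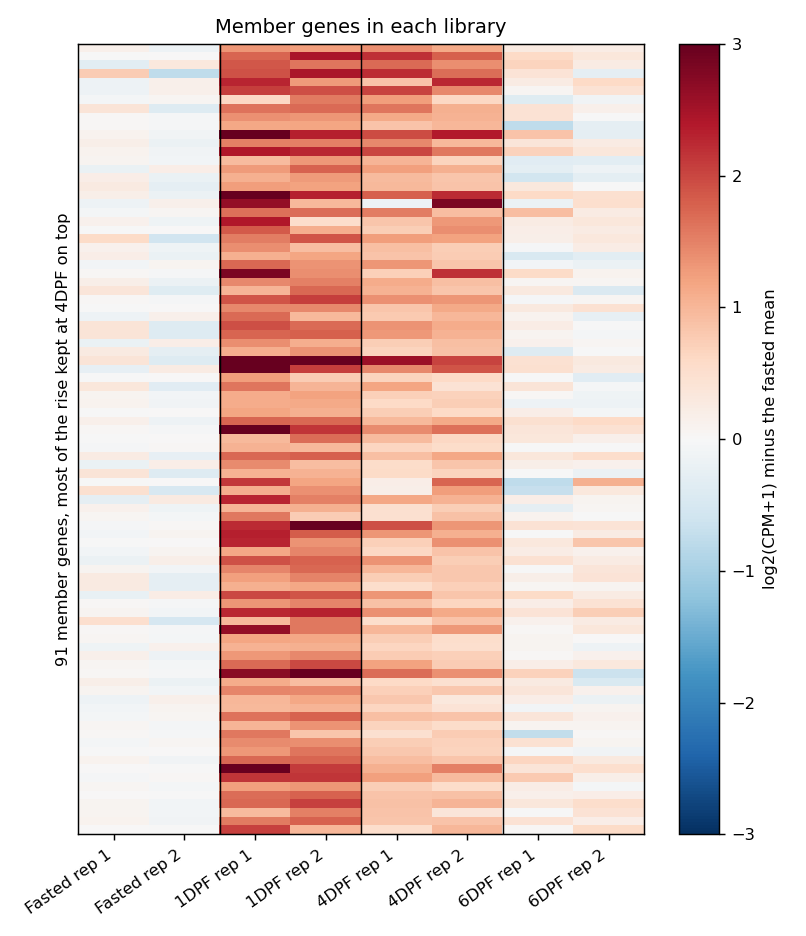
Heat map of the 91 members (rows, ordered by the share of the rise kept at 4DPF) in the 8 libraries (columns). Colour is log2(CPM+1) minus the gene's fasted mean, with the scale ending at -3 and 3. The 1DPF columns are the darkest, the 4DPF columns are intermediate and the 6DPF columns are close to the fasted ones.

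A pair of members carried much of this share. Without them the remaining members held 0.485% and 0.422% of reads in fasted ventricle, 1.46% and 1.47% at 1DPF, 0.939% and 0.910% at 4DPF, with 0.520% and 0.478% at 6DPF. The wide fasted gap in the total, 1.10% against 0.669%, was mostly that of the pair, which took 0.614% and 0.247% in those libraries.

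Gene 103048247, of 1455 bases, had the highest level of all members per length, with a mean of 6146 TPM (CPM corrected for gene length) over the 8 libraries. Its CPM was 2943 and 1009 in the fasted libraries, 6508 and 9456 at 1DPF, 7947 and 5517 at 4DPF, with 2283 and 1433 at 6DPF. The 1DPF and 4DPF libraries overlapped, and the fasted and 6DPF libraries overlapped, while all 4 of the former lay above all 4 of the latter. It kept 88.8% of its rise at 4DPF. The fitted log2 change was 1.99 (SE 0.51) for 1DPF against fasted, 1.77 (SE 0.51) for 4DPF against fasted and -0.21 (SE 0.49) for 4DPF against 1DPF. The first of these was called by edgeR at an adjusted p under 0.05 and the other pair was not. Without fasted replicate 1 the first became 2.98 and the second 2.78, and without 1DPF replicate 2 the last turned to 0.15. Leaving out replicate 1 of 1DPF gave -0.50, replicate 1 of 4DPF -0.47 and replicate 2 of 4DPF 0.02.

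The other member of the pair, of 1707 bases, came second per length at a mean of 4797 TPM. It stood at 3193 and 1461 CPM in fasted libraries, 6220 and 7939 at 1DPF, 5149 and 4953 at 4DPF, with 2445 and 2673 at 6DPF. Like gene 103048247, it was lower in fasted replicate 2 than in fasted replicate 1. It kept 72.0% of its rise, with both 4DPF libraries below both 1DPF libraries. Next per length, at 694 TPM, was a gene of 3440 bases that kept only 50.8%. It went from 533 and 565 CPM to 2416 and 2438 at 1DPF, then to 1289 and 1060 at 4DPF and 949 and 615 at 6DPF. Its groups did not overlap at any of these steps.

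Gene 103051671, of 2171 bases, had the largest rise. Its CPM was 50.6 and 29.4 in fasted libraries, 505 and 470.5 at 1DPF, 232 and 162 at 4DPF, with 53.4 and 47.7 at 6DPF. The libraries of the 1DPF and 4DPF groups were apart from each other and from the rest, while the 6DPF and fasted ranges overlapped. The mean rose from 40.0 ± 15.0 to 488 ± 24.3 CPM (SD, n = 2 libraries each), and it was 197 ± 49.7 at 4DPF and 50.6 ± 3.98 at 6DPF (SD, n = 2 each). The fitted log2 change was 3.57 (SE 0.29) for 1DPF against fasted, 2.31 (SE 0.27) for 4DPF against fasted, -1.27 (SE 0.26) for 4DPF against 1DPF and -2.03 (SE 0.27) for 6DPF against 4DPF. At an adjusted p under 0.05 edgeR called each of these changes except that for 6DPF against 4DPF. On the log2 scale the gene kept 63.4% of its rise, which corresponds to less than that share in CPM because the scale is logarithmic.

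**Figure D2:**
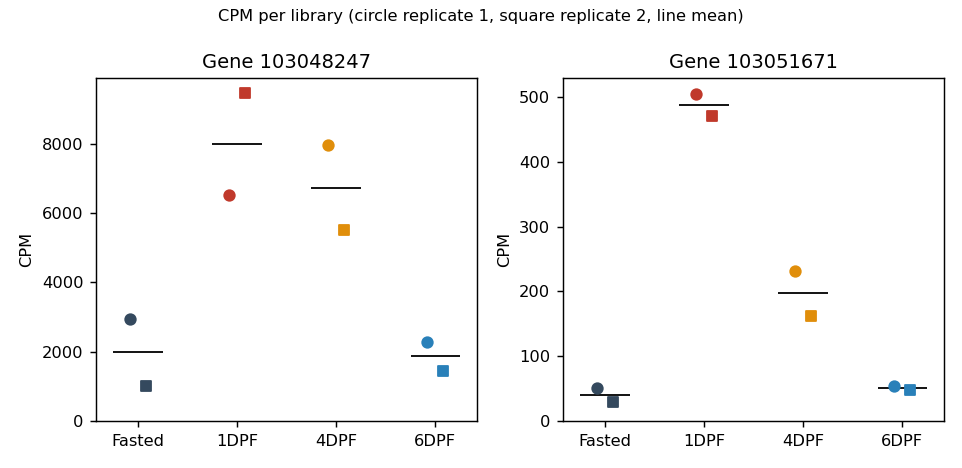
CPM of genes 103048247 and 103051671 (y axes, from 0) in the fasted, 1DPF, 4DPF and 6DPF groups (x axes), with circles for replicate 1, squares for replicate 2 and lines for the mean of both. Gene 103048247 has overlapping 1DPF and 4DPF libraries, while gene 103051671 steps down from 505 and 470.5 to 232 and 162 CPM.

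The members covered a wide range of levels. Per length, the mean at 1DPF ran from 2.45 to 10835 TPM with a median of 53.9. The 179 genes that had lost 50% or more of the rise ran from 2.62 to 1670 TPM, with a median of 29.2. Members were 491 to 10285 bases long with a median of 2502, the 179 genes had a median of 2922, and all 10582 genes with a 1DPF mean of at least 3 had one of 2954. These medians are descriptions, and none of the differences was tested.

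Most rises were modest. The median rise at 1DPF over fasted was 1.47 on the log2(CPM+1) scale, with a range of 1.01 to 3.62. A rise of at least 4-fold on this scale was seen in 17 members, and 1 of them, gene 103051671, passed 8-fold. Among the 179 genes the median was 1.34, with a maximum of 4.28. At 4DPF the median member was still 0.93 above fasted, with 40 members at least 2-fold and 3 at least 4-fold above it. The 179 genes stood 0.46 above fasted at that time, a difference that the rule itself sets.

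**Figure D3:**
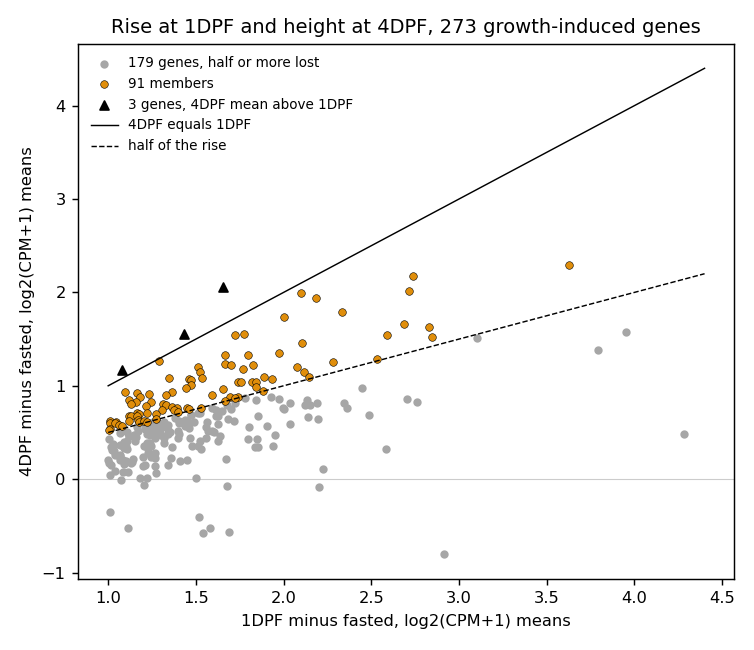
Difference of the 4DPF mean from fasted (y axis) against that of the 1DPF mean from fasted (x axis), both in log2(CPM+1), for the 273 growth-induced genes. The 91 members lie between the solid line, where 4DPF equals 1DPF, and the dashed line, where 50% of the rise is left. Many of them are close to the dashed line.

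The share of the rise kept at 4DPF crowded toward the limit. It was between 50% and 60% in 47 members, between 60% and 70% in 18, between 70% and 80% in 17, and over 80% in 9. The median was 59.5%. Nearest inside the limit were members that had lost 49.7%, 49.9% and 49.9% of the rise, and nearest outside it genes that had lost 51.3%, 51.4% and 51.5%. All these shares are on the log2(CPM+1) scale, and the share of the rise in CPM can be lower. A member that had lost 49.9% had means of 12.8 CPM in fasted, 42.9 at 1DPF and 23.6 at 4DPF. In CPM its 4DPF mean was nearer to fasted than to 1DPF.

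At the other end, the member with the highest share kept 98.2%. This gene of 1402 bases stood at 14.0 and 11.0 CPM in fasted libraries, 32.5 and 31.1 at 1DPF, 34.5 and 28.3 at 4DPF, with 15.1 and 14.8 at 6DPF. Its 4DPF libraries enclosed its 1DPF libraries. The next, of 1007 bases, kept 95.1% and went from 75.6 and 77.3 CPM to 258 and 423 at 1DPF, 352 and 269 at 4DPF, with 117 and 97.7 at 6DPF. Here too the 1DPF and 4DPF libraries overlapped. A gene of 1873 bases kept 89.3%, with 12.6 and 20.1 CPM in fasted libraries, 60.2 and 50.2 at 1DPF, 53.8 and 43.2 at 4DPF, with 25.8 and 19.2 at 6DPF.

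The members were lower again at 6DPF. The median member was 0.77 higher at 4DPF than at 6DPF on the log2(CPM+1) scale. In 85 members both 4DPF libraries exceeded both 6DPF libraries, which was so for 18.1% of the 16986 genes tested. In 89 members both 4DPF libraries exceeded both fasted libraries, against 29.9% of genes tested. In 70 members both 1DPF libraries exceeded both 4DPF libraries, against 32.7% of genes tested, and in the other 21 the ranges overlapped. In none were both 4DPF libraries above both 1DPF libraries. The rule used all of these contrasts, so nothing is read from the counts.

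The exceptions among the 89 were 2 members. A gene of 8718 bases had 1.58 and 19.2 CPM at 4DPF, against 1.60 and 2.16 in fasted libraries, 16.7 and 4.60 at 1DPF and 1.54 and 3.06 at 6DPF. Its 4DPF mean came from replicate 2 alone. A gene of 1738 bases had 109 and 230.4 CPM at 4DPF, against 135 and 69.0 in fasted libraries, 205 and 249 at 1DPF and 59.8 and 120 at 6DPF. Its fasted and 4DPF ranges overlapped.

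How far the 4DPF libraries matched was read from each of them separately, over the 273 genes, which were chosen with no 4DPF value. More than 50% of the rise was present in 101 genes by replicate 1 and in 96 by replicate 2. The lists shared 54 genes, which is 53.5% of the first and 56.2% of the second. The median share present was 43.2% by replicate 1 and 41.9% by replicate 2, and a gene's values differed by a median of 16.4 percentage points. Across the 273 genes Pearson's r between the shares was 0.40, and the shares have the fasted and 1DPF means in common. Of the 91 members, 51 were over 50% in both 4DPF libraries, 20 in replicate 1 alone and 20 in replicate 2 alone.

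**Figure D4:**
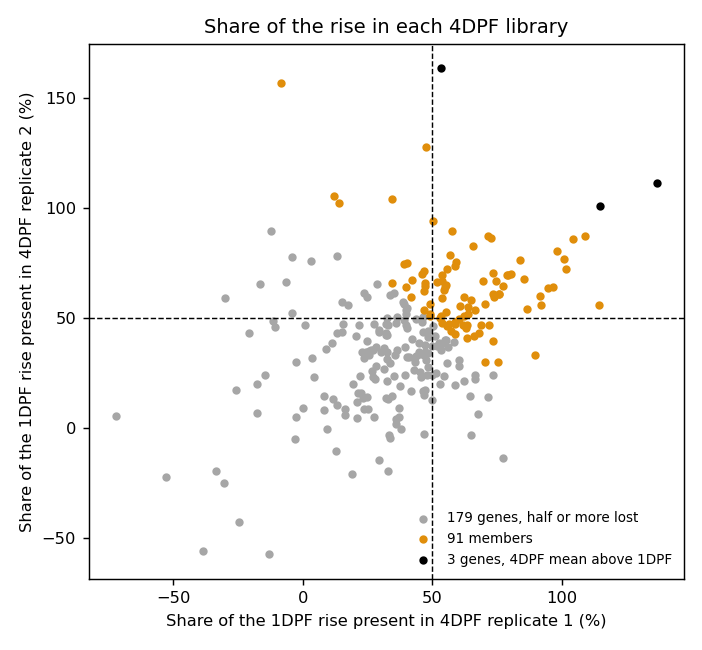
Share of the 1DPF rise present in 4DPF replicate 2 (y axis, %) against that in 4DPF replicate 1 (x axis, %), 1 point per gene for the 273 growth-induced genes. Dashed lines mark 50%, and 51 of the 91 members lie above both lines.

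The list of members also depended on single libraries. With 1 library left out and the rule applied to the other 7, between 82 and 95 genes qualified, but between 61 and 76 of them were among the 91. Without 1DPF replicate 1, 61 of the 91 remained, and without 6DPF replicate 1, 76 did. Only 14 members qualified in every one of these 8 settings. Neither gene 103048247 nor gene 103051671 was among them, and the other member of the pair, of 1707 bases, was not. The members that kept 98.2%, 95.1% and 89.3% of the rise were not among them either. These 14 kept between 52.2% and 79.2% of the rise, with a median of 66.4%, and their mean at 1DPF ran from 11.8 to 409 CPM. A gene of 2281 bases among them stood at 93.2 and 87.6 CPM in fasted libraries, 337 and 381 at 1DPF, 236 and 227 at 4DPF, with 87.6 and 93.4 at 6DPF. Another, of 1563 bases, stood at 122 and 159, 338 and 480, 327 and 293, and 114 and 125 CPM in the same order. In both of these genes the groups overlapped only between fasted and 6DPF.

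Libraries of the same group were further apart for the growth-induced genes than for genes at large by their medians. The median absolute log2 difference between the 1DPF libraries was 0.26 over the members and 0.27 over the 179 genes, against 0.15 over the 10582 genes with a 1DPF mean of at least 3. Between the 4DPF libraries it was 0.25, 0.26 and 0.17 in the same order. These differences were not tested, and the rule puts no limit on the gap between the 4DPF libraries.

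The gaps in the 1DPF and 4DPF groups tended to run in opposite directions. Pearson's r between them was -0.62 over the 91 members, and -0.57 over 90 without the member with the widest 4DPF gap. It was -0.59 over the 179 genes and -0.36 over the 10582 genes, so the pattern is not limited to the members. These genes share the same 4 libraries. The gaps had opposite signs in 56 members (61.5%), in 68.2% of the 179 genes and in 53.5% of the 10582 genes. Replicate numbers are not said to link groups, so the direction of the pattern rests on the numbering. In 21 members 1DPF replicate 1 exceeded replicate 2 by more than 0.5 on the log2 scale, and in 18 of these 4DPF replicate 2 was the higher 4DPF library. In the remaining 70 members this was so in 18. The limit of 0.5 was chosen after the values were seen.

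**Figure D5:**
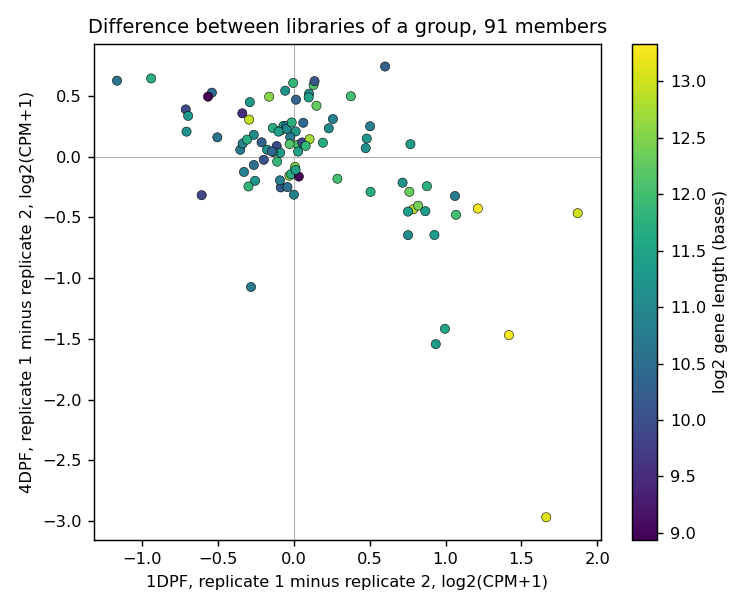
Difference between 4DPF replicates 1 and 2 (y axis) against that between 1DPF replicates 1 and 2 (x axis), in log2(CPM+1), for the 91 members, coloured by log2 gene length. Of the 21 points at more than 0.5 on the x axis, with 1DPF replicate 1 higher, 18 lie below 0 on the y axis.

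At 6DPF the members were close to fasted, as the rule demands, but not evenly around it. The 6DPF mean was above the fasted mean in 69 of 91 members (75.8%), with a median difference of 0.17. It was above in 78 of the 179 genes (43.6%, median -0.03) and in 52.8% of the 10582 genes. Both 6DPF libraries exceeded both fasted ones in 35 of 91 members, against 29.0% of all genes tested. The reverse held in 7 of 91 members, against 19.3%. Unlike the members, the genes tested were not held to the limit of 0.585 between the fasted and 6DPF means. With TMM scaling in the fitted model, 62 members had a positive change. The fasted libraries enter both the choice of members and this difference. A lower fasted mean gives a smaller share lost, which favours membership over the 179 genes, and also a larger difference. The excess was therefore not tested.

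All 91 members passed the filter on low counts and entered an edgeR quasi-likelihood fit over all 16986 genes. At an adjusted p under 0.05, 86 were called higher at 1DPF than fasted, where 9.58% of all genes were called higher, and 85 were called lower at 6DPF than 1DPF, where 10.4% were. Higher calls at 4DPF against fasted numbered 58, against 4.54% of all genes. Lower calls at 4DPF against 1DPF numbered 15, against 2.20%, and 1 member was called lower at 6DPF than 4DPF, against 0.0353%. Between 6DPF and fasted edgeR called 0 members, where it called 70 of all genes (0.412%). At an unadjusted p under 0.05 in edgeR there were 8 members and 2790 of all 16986 genes. DESeq2 also called 0 members, where it called 788 of all genes in either direction. Since the rule used every one of these contrasts, the counts only locate the members in the fit.

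Several of these counts depended on single libraries. For every contrast with calls, fewer members were called when a library of either group compared was left out. For 4DPF against 1DPF this was also so without a fasted or a 6DPF library. In the other contrasts with calls, leaving out a library of a group not compared lowered the count in some fits. It raised the count or left it unchanged in others. Calls over all genes tested fell in each of these fits as well, so the fall was not particular to the members. Such a fit has 1 library in a group, so its counts of calls are not given and the size of the fall is not read. For 4DPF against fasted, the change of gene 103048247 was 2.78 without fasted replicate 1 and 1.23 without fasted replicate 2. That of gene 103051671 was 2.79 and 2.00. The fitted change for 4DPF against fasted had a median of 1.01 over the members, with a range of 0.56 to 2.49, beside a median near 0 over all genes tested. That for 4DPF against 1DPF had a median of -0.52 and a range of -1.32 to 0.06.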

How the data were processed

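Poly-A RNA from left ventricle was sequenced as paired-end reads, per the labels' protocols. The authors deposited raw counts per gene and a length for each gene, per the file headers. The submitters' processing notes name featureCounts, HISAT2 2.1.0, Trimmomatic 0.36, DESeq2 1.36.0 and SAMtools 1.8. For the genome build, annotation, strand setting and treatment of multiply assigned reads, details were not given in the sources used here, so counts of overlapping genes and near-identical copies are uncertain. Columns were matched to samples by the description labels.

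CPM used raw column totals, and TPM was computed from count and length. The tests used edgeR 4.0.16 (R 4.3.3), with filterByExpr (minimum count 10, minimum total 15), TMM factors between 0.9623 and 1.066, and all 8 libraries in 1 quasi-likelihood fit with group as the sole term and 4 residual degrees of freedom. Adjusted p is Benjamini-Hochberg over 16986 genes, two-sided. SEs came from the change and the F statistic. Nothing says that libraries of a group are separate snakes, so p-values cover only the spread among the sequenced libraries, possibly a technical one. Alternatives were DESeq2 1.42.0, other filters, RLE factors, leaving out each library, fitting only the groups compared, and a replicate block.

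The members, gene lists and tests were chosen with earlier results of these data known. The rule for named genes took the members highest in mean CPM, rise and share kept, and those nearest the limit. As no table pairs identifiers with names, gene lists were not used, and identifiers were printed for the first gene by CPM and by rise. Each script was tested on simulated data.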

Additional observations from a re-analysis of the deposited data

How the results depend on the processing

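The number of members was 97 with TMM-scaled CPM (86 of the 91 among them), 94 with a pseudocount of 0.5 (86), 104 with a minimum log2 level of 1 at 1DPF (91), and 82 to 95 with 1 library left out. With 1 library left out, edgeR called between 54 and 87 members for 1DPF against fasted, 0 to 58 for 4DPF against fasted, 0 to 10 for 4DPF against 1DPF, 0 to 2 for 6DPF against 4DPF and 67 to 87 for 6DPF against 1DPF. Each of these fits has 1 library in a group, so the ranges are not read as the size of a change. They pool fits without a library of a group compared and fits without a library of another group. For 4DPF against 1DPF, where 15 members were called, DESeq2 called 27 and the fit with the replicate block 7. On these groups alone edgeR called 0 (41 at an unadjusted p under 0.05). In the step from 4DPF to 6DPF, where 1 was called, DESeq2 called 65, edgeR without a filter on low counts 7, with the replicate block 0 and on these groups alone 0 (80 and 84 at an unadjusted p under 0.05). Calls over all genes, in either direction, shifted as well. For 4DPF against 1DPF they numbered 1046 as reported, 2205 by DESeq2, 670 with the replicate block and 0 on these groups alone. For 6DPF against 4DPF they numbered 15 as reported, 731 by DESeq2 and 33 without a filter on low counts. They were 0 with the replicate block and 0 on these groups alone. The cause of these shifts was not tested. For the unadjusted p, counts over all genes cover only the edgeR fit as reported. Under 0.05 it had 45 members and 4364 of all genes for 4DPF against 1DPF. For 6DPF against 4DPF it had 82 members and 2687 of all genes. Apart from the fits with 1 library left out, the other counts stayed within 1.5 times under the alternatives. In these, 6DPF against fasted had 0 members called, where calls over all genes ran from 68 with RLE factors to 788 by DESeq2. At an unadjusted p under 0.05 they had 8 or 9 members, beside 2790 of all genes in the edgeR fit as reported. The replicate block is a number in the labels that is not said to link groups. Over all genes tested, replicate 1 minus replicate 2 correlated between 4DPF and 6DPF at 0.48, between 1DPF and 4DPF at -0.34, and for the remaining combinations from -0.20 to 0.05. Over the alternatives the log2 change of gene 103048247 ran from 1.43 to 2.98 for 1DPF against fasted, from 1.23 to 2.78 for 4DPF against fasted and from -0.50 to 0.15 for 4DPF against 1DPF. That of gene 103051671 ran from 3.25 to 4.04, from 2.00 to 2.79 and from -1.52 to -1.03. The lowest count of a member in any library was 47, so counting error adds to the spread of the low members, and 2 libraries a group limit the precision.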

Other observations

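All 4 members longer than 8000 bases had more than 2-fold higher CPM in 1DPF replicate 1 than in 1DPF replicate 2. The longest, of 10285 bases, stood at 15.6 and 22.1 CPM in fasted libraries, 191 and 81.8 at 1DPF, 52.3 and 70.7 at 4DPF, with 26.4 and 22.03 at 6DPF. The gene of 9901 bases stood at 2.14 and 2.00, 20.6 and 7.09, 4.07 and 13.05, and 3.57 and 2.29 CPM in the same order. The gene of 8208 bases stood at 3.37 and 2.63, 19.9 and 4.72, 6.12 and 8.84, and 3.74 and 4.08 CPM. The fourth is the gene of 8718 bases with 1.58 and 19.2 CPM at 4DPF. In all 4 replicate 2 was the higher 4DPF library. Such a gap at 1DPF was present in 0 of the 6 genes over 8000 bases among the 179 that had returned further. It was present in 13 of 500 (2.60%) over that length among all genes with a 1DPF mean of at least 3. Those 13 include the 4 members. Over the 91 members Pearson's r between the 1DPF gap and log2 length was 0.46, and 0.29 over the 87 members of up to 8000 bases. It was -0.06 over the 179 genes and 0.09 over the 10582 genes. The limit of 8000 bases was chosen after the values were seen, and the role of RNA quality or of a single snake was not tested.

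The 3 growth-induced genes with a higher mean at 4DPF than at 1DPF fall outside the rule. One of 5722 bases stood at 6.32 and 3.84 CPM in fasted libraries, 19.96 and 15.8 at 1DPF, 27.7 and 20.4 at 4DPF, with 4.99 and 4.31 at 6DPF. Both of its 4DPF libraries were above both 1DPF libraries. One of 1631 bases stood at 3.67 and 3.10, 12.9 and 9.03, 6.44 and 21.2, and 3.62 and 6.34 CPM in the same order, so that its 4DPF libraries enclosed those of 1DPF. One of 1552 bases stood at 131 and 59.5, 140.1 and 253, 211 and 189, and 78.2 and 87.1 CPM, with the 1DPF libraries enclosing those of 4DPF.

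In 3 instances members occupied adjacent lines of the deposited table. What the order of lines stands for is not given.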
